A study of Mus musculus with 6 samples.

Results

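Described here are 10 genes of conventional dendritic cells, chosen by symbol from the 26452 genes of the deposited table, with their levels in spleens of Was knockout and wild-type mice. They are Xcr1, Clec9a, Batf3, Wdfy4, Itgae and Irf8, used as cDC1 genes, Esam and Clec4a4, used as cDC2 genes, and Zbtb46 and Flt3, shared by both. These cells take up antigen in the spleen and present it to T cells. Those called cDC1 need the transcription factors IRF8 and BATF3 and cross-present antigen to CD8+ T cells, whereas those called cDC2 present mainly to CD4+ T cells, and in the spleen one group of them depends on NOTCH2 and carries ESAM. Both arise from precursors that respond to the growth factor FLT3 ligand and both carry the transcription factor ZBTB46. RNA came from spleens of male mice aged 10 weeks, 3 of them Was -/- (129S6/SvEvTac-Wastm1Sbs/J, called KO) and 3 wild-type 129S6/SvEvTac mice (WT). Was encodes an activator of actin assembly in blood cells. The mice of each group were bought as separate stocks. Differences between the genotypes thus cannot be told apart from differences between the stocks. Whether mice within a group were littermates is not given in the sources used here.

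Each library is 1 mouse, and reads assigned to genes ranged from 30661759 to 38402758 a library. Was itself had 508, 407 and 409 normalized counts in KO451, KO452 and KO457, against 4142, 6561 and 6279 in WT453, WT454 and WT455, so each library had the level its label calls for. A normalized count is a read count divided by the authors' size factor for the library. WT453 stood apart from the other 5 libraries on the first principal component of all tested genes, which held 39.2% of the variance. It lay at -184, where the others lay between 21.6 and 55.1. Neutrophil markers summed to 55672 CPM (ppm of the reads assigned to genes) in WT453 and to between 3511 and 37555 CPM in the other 5, and progenitor markers to 3492 CPM in WT453 and to between 185 and 1124 CPM in the other 5. WT453 had the lowest value of the 6 libraries in 5 of the 10 members and in 32.7% of all genes tested. In whole spleen, fewer cells of a type and less RNA per cell cannot be told apart.

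Of the 10 dendritic cell genes, 1 had groups that did not overlap. Zbtb46 was 1.91-fold higher in KO spleens, while the other 9 overlapped between genotypes. Xcr1, Batf3, Clec9a and Esam had higher mean log2 values in KO spleens, Irf8, Wdfy4, Itgae and Flt3 had lower ones, and Clec4a4 had a log2 fold change of 0.02. No member passed the test over all genes (limma on the deposited log2 values, Benjamini-Hochberg adjusted p under 0.05), which called 2 of 22081 genes, 0.00906%. At an unadjusted limma p under 0.05 there was 1 member of 10, Zbtb46, beside 11.0% of all genes tested. Groups did not overlap in 1 of 10 members beside 19.5% of all genes tested, and the share higher without overlap was 9.54% of all genes. Limma voom on whole reads called 0 of 22081 genes, the members among them. Only Zbtb46, 1 member of 10, has an FDR below 0.05 by the authors' deposited table, beside 4.29% of the genes tested here. A count of 1 in 10 is near the share over all genes for the unadjusted p and for groups without overlap. The median log2 fold change of the 10 members was 0.22, with 6 above 0, beside -0.03 over all genes tested, of which 47.7% were above 0. Without WT453 the median of the members was 0.02, with 5 above 0, and without KO452 it was 0.037.

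**Figure D1:**
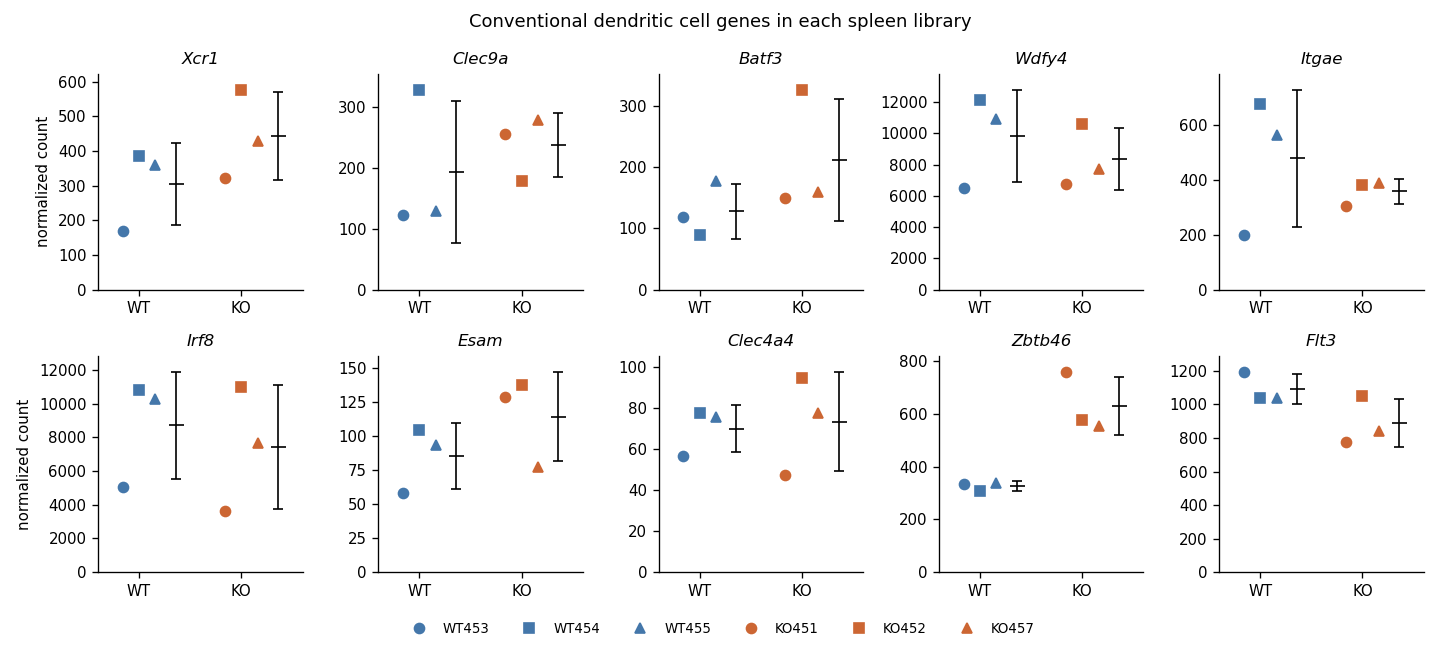
Normalized count (y axis, from 0) of each member in each library, WT in blue and KO in orange, with the mean and SD of each group beside the points. In Zbtb46 the 3 KO libraries lie above all 3 WT libraries, and in the other 9 panels the groups overlap.

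Levels between genes were compared per length, as reads per kilobase of merged exons, scaled to each library's reads assigned to genes (RPKM, GENCODE M21). Irf8 was the most abundant member, at 34.5 ± 14.7 RPKM (SD, n = 6), and Wdfy4 followed at 25.9 ± 8.24. Irf8 was above Wdfy4 in 5 of 6 libraries. Wdfy4 was above Flt3, at 4.79 ± 0.975, in all 6. Irf8 and Wdfy4 are also made in B cells, so their level in spleen is not that of dendritic cells alone. Below Flt3 came Batf3 at 3.14 ± 1.57, Clec4a4 at 2.75 ± 0.732, Itgae at 2.75 ± 1.29, Xcr1 at 2.49 ± 0.911, Clec9a at 1.93 ± 0.773, Zbtb46 at 1.64 ± 0.522 and Esam at 1.03 ± 0.309. From Batf3 to Clec9a each gene was above the next in between 2 and 4 of 6 libraries, so neighbours in that stretch did not differ beyond their spread. Every member had reads in every library, the fewest being 44 reads of Clec4a4 in KO451, and all 10 passed the filter on low values. All 10 are protein-coding in GENCODE M21 (GRCm38). Zbtb46, Clec9a and Clec4a4 are placed below, and the other members are on chromosome 1 (Batf3, 191097847 to 191108945, plus strand), chromosome 5 (Flt3, 147330741 to 147400489, minus), chromosome 8 (Irf8, 120736358 to 120756694, plus), chromosome 9 (Esam, 37528078 to 37538319, plus, and Xcr1, 123852315 to 123862029, minus), chromosome 11 (Itgae, 73090583 to 73147446, plus) and chromosome 14 (Wdfy4, 32959547 to 33185508, minus). Zbtb46, Flt3, Irf8, Itgae and Wdfy4 each overlap 1 other gene model without sharing exon bases with it.

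Zbtb46 encodes a zinc finger transcription factor that marks the conventional dendritic cell lineage and is also made in endothelium and in red cell precursors. It had 336, 307 and 339.7 normalized counts in WT453, WT454 and WT455 and 759, 578 and 555 in KO451, KO452 and KO457. The lowest KO library was above the highest WT library, and the WT libraries were close to each other, WT453 included. The log2 fold change was 0.93 ± 0.23 (SE), with a 95% interval from 0.38 to 1.48 (1.30-fold to 2.79-fold), and limma gave an adjusted p of 0.344 (0.00495 before adjustment). By exact permutation of the genotype labels, two-sided, p was 0.1, the smallest that 3 mice against 3 can give. In the authors' deposited table its FDR was 0.00290. Over the 13 alternative settings its log2 fold change ranged from 0.79 to 1.02 and its limma adjusted p from 0.190 to 0.693, so it was not called in any of them.

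The annotated start of Zbtb46 for which RefSeq gives a promoter window lies inside the gene model (chromosome 2, 181387762 to 181459426, minus strand, GRCm38). The window does not reach the upstream end of the model, at 181459426, and that end was not searched for motifs. That window is printed because Zbtb46 was the member whose groups did not overlap, and the window of Clec9a, a receptor gene of cDC1 that plasmacytoid dendritic cells and dendritic cell precursors also make, is set beside it. Both windows run from 250 bases before to 50 bases after the start and are the reference sequence (RefSeq, GRCm38.p6, a C57BL/6J genome), not that of 129S6 mice. Capitals mark a match to the AP-1 motif, the kind of site that BATF3 binds with a JUN partner.
Zbtb46 (chr2:181424339-181424638, minus strand): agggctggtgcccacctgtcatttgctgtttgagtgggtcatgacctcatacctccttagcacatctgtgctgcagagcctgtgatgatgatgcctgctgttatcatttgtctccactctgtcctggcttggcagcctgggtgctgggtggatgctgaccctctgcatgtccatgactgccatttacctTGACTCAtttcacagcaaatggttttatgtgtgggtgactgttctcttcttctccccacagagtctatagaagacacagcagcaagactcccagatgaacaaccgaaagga
Clec9a (chr6:129408612-129408911, plus strand): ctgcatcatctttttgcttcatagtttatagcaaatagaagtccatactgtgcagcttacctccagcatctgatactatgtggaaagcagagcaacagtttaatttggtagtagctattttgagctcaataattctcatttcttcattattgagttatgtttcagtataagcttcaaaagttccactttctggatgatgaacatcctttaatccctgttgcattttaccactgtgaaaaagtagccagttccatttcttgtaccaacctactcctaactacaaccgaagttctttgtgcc
Windows were found for 7 members (Batf3, Zbtb46, Flt3, Clec9a, Irf8, Xcr1 and Wdfy4), 8 in all because Irf8 has 2. They were searched on both strands for the AP-1 motif TGANTCA and for GAGGAAG, a form of the site of PU.1. The AP-1 motif was found once, as TGACTCA in Zbtb46, beginning 61 bases before that start inside the gene model. The PU.1 letters were found once, in Batf3, beginning 153 bases before its start. Of 32851 windows of this length, 7.81% hold the AP-1 motif and 13.6% the PU.1 letters.

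Markers of the other cell types that make Zbtb46 were measured beside it. All 11 measured erythroid markers were above 0 in log2 fold change, with a median of 2.78. All 11 were higher in KO without overlap, beside 9.54% of all genes tested. Their summed level ranged from 1577 to 7713 CPM in WT and from 17717 to 51615 CPM in KO libraries, with none of the 11 at 0 in any library. KO451 was highest in that sum, at 51615 CPM, and highest in Zbtb46. KO452 and KO457 were close to each other in both, though in opposite order. Their erythroid sums were 17717 and 20189 CPM, and they had 578 and 555 normalized counts of Zbtb46. Among WT453, WT454 and WT455 the erythroid sum was 1577, 4795 and 7713 CPM, and Zbtb46 was between 307 and 339.7 normalized counts. Klf1, a red cell transcription factor, had 9351 normalized counts in KO451, 3062 in KO452 and 3699 in KO457. Without KO451, Zbtb46 had a log2 fold change of 0.79. Of 12 endothelial markers 10 were tested, 7 of them above 0, with a median of 0.40 that was 0.040 without WT454 and 0.12 without KO452. Their summed level overlapped between the groups, at 134 to 248 CPM in WT and 151 to 246 CPM in KO libraries. Pecam1, Stab2, Egfl7 and Cdh5 were the most abundant (RPKM), with log2 fold changes of -0.47, 1.07, 0.74 and 0.02. Pecam1, which led the list in level, thus went against its median. In that list 2 of the tested markers, Robo4 and Sox18, had no reads in at least 1 library, and Emcn and Sox17 were below the filter. The part of either cell type in the Zbtb46 difference was not tested.

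Flt3 encodes the receptor for FLT3 ligand and is also made in blood progenitors and plasmacytoid dendritic cells. It had 1193, 1041 and 1039 normalized counts in WT453, WT454 and WT455 and 778, 1050 and 840.4 in KO451, KO452 and KO457. KO451 and KO457 lay below all WT libraries and KO452 lay among them. Its log2 fold change was -0.30 ± 0.21 (SE), with a 95% interval from -0.80 to 0.19 (limma, adjusted p = 0.618). Progenitor markers summed to 3492, 185 and 331 CPM in WT453, WT454 and WT455 and to 437, 332 and 1124 CPM in KO451, KO452 and KO457. WT453 was the highest library in that sum and in Flt3. KO457 followed in the sum but had less Flt3 than every WT library, and WT454, lowest in the sum, did not have the least Flt3. All 9 of those markers were measured, 8 were above 0 in log2 fold change and none was at 0 in any library. Elane, Mpo, Ctsg and Myb were the most abundant of them (RPKM). WT453 and KO457 also had the highest neutrophil marker sums, at 55672 and 37555 CPM. The progenitor sum thus need not follow the progenitors that make Flt3. Plasmacytoid dendritic cell markers summed to between 512 and 1407 CPM in WT and between 631 and 1077 CPM in KO libraries, with WT453 the lowest. The part of either cell type in the Flt3 values was not tested. Zbtb46 and Flt3 are both lineage genes, and their log2 difference within a library (Zbtb46 less Flt3) was -0.50 ± 0.42 (SD, n = 3) in KO and -1.73 ± 0.11 (SD, n = 3) in WT libraries. That pair was picked after its values were seen, so the difference is given with no test. Flt3l, the ligand, had 863, 817 and 703 normalized counts in WT and 440, 639 and 438 in KO libraries. Its KO libraries were all below its WT libraries, with a log2 fold change of -0.67 ± 0.24 (SE) that did not pass (limma, adjusted p = 0.403).

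**Figure D2:**
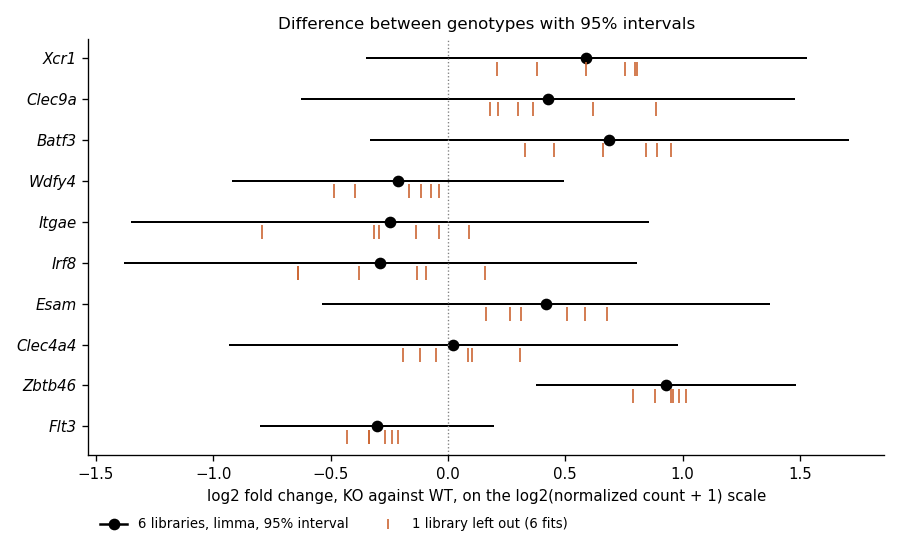
Log2 fold change of each member, KO against WT (x axis), with its 95% interval from limma on 6 libraries (black) and the values with each library left out (orange ticks). The interval of Zbtb46 lies above 0, from 0.38 to 1.48, and those of the other 9 include 0.

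The surface receptors of cDC1 varied as much within a genotype as between them. Xcr1, the receptor for the chemokine XCL1, had 169, 386 and 359 normalized counts in WT453, WT454 and WT455 and 323, 577 and 430.1 in KO451, KO452 and KO457. KO452 and KO457 were above all WT libraries, and WT453 was below the rest. Between genotypes Xcr1 had a log2 fold change of 0.59 ± 0.40 (SE), with a 95% interval from 0.79-fold to 2.87-fold (limma, adjusted p = 0.607). Leaving out 1 library gave from 0.21 (without WT453) to 0.80 (without WT454). Xcl1, made by NK cells and CD8+ T cells, had 112, 194 and 322 normalized counts in WT and 86.8, 218 and 161 in KO libraries, which overlap.

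Clec9a encodes DNGR-1, a receptor that binds actin filaments exposed on dead cells. It had 123, 328 and 129 normalized counts in WT453, WT454 and WT455 and 255, 178 and 278 in KO451, KO452 and KO457. WT454 was the highest of the 6 libraries and the other 2 WT libraries the lowest. Its log2 fold change was 0.43 ± 0.45 (SE), with a 95% interval from 0.65-fold to 2.77-fold (limma, adjusted p = 0.740), and it was 0.89 without WT454 and 0.18 without WT453. Xcr1 and Clec9a were both lowest in WT453, but the order of the other libraries differed between them. WT455 had 359 of Xcr1 and 129 of Clec9a, and KO452 had the most Xcr1 but less Clec9a than the other KO libraries. The Clec9a model (chromosome 6, 129408862 to 129424763, plus strand) shares 184 exon bases with Clec1b on the same strand. Clec1b, a receptor of platelets and myeloid cells, had 323, 585 and 641 normalized counts in WT and 661, 1640 and 1118 in KO libraries. How reads on shared bases were counted is not given in the sources used here, and their part in the Clec9a values was not tested.

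Itgae encodes the CD103 integrin chain, which pairs with ITGB7 to bind E-cadherin and is carried by cDC1 and by some T cells. It had 198, 677 and 564 normalized counts in WT453, WT454 and WT455 and 304, 380 and 391 in KO451, KO452 and KO457. All 3 KO libraries fell between WT453 and the other 2 WT libraries. The log2 fold change was -0.25 ± 0.47 (SE) (limma, adjusted p = 0.882, or 0.613 before adjustment), with a 95% interval from 0.39-fold to 1.81-fold. Without WT453 it was -0.79 (limma, adjusted p = 0.190, or 0.00885 before adjustment). In that fit 4165 of 21657 genes had an unadjusted limma p under 0.05. Without WT454 the log2 fold change of Itgae turned to 0.0915. Its partner Itgb7 had 4235, 10214 and 10708 normalized counts in WT and 4803, 7045 and 4833 in KO libraries. WT453 was the lowest library in Itgb7 as in Itgae. T cell markers had a summed level of 674, 1934 and 1789 CPM in WT453, WT454 and WT455 and of 615, 1259 and 748 CPM in KO451, KO452 and KO457. All 12 of them were measured and all 12 were below 0 in log2 fold change, with none at 0 in any library. The 6 regulatory T cell markers summed to between 54.1 and 102 CPM in WT and between 44.7 and 78.7 CPM in KO libraries. The part of T cells in the Itgae values was not tested.

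Among regulators of cDC1, Batf3, a leucine zipper factor needed for these cells, had 118, 88.1 and 177 normalized counts in WT453, WT454 and WT455 and 149, 326 and 159 in KO451, KO452 and KO457. KO452 was above all other libraries and the remaining KO libraries were within the WT range. Batf3 thus had a log2 fold change of 0.69 ± 0.43 (SE), with a 95% interval from 0.80-fold to 3.26-fold (limma, adjusted p = 0.573), and it was 0.33 without KO452 and 0.95 without WT455. Id2 and Nfil3, factors upstream in the development of cDC1 that other lymphoid and myeloid cells also make, overlapped between the groups, with log2 fold changes of -0.53 ± 0.42 (SE) and -0.28 ± 0.45 (SE). Both were highest in WT453, at 8267 normalized counts of Id2 and 1409 of Nfil3.

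Irf8 encodes a factor of cDC1, plasmacytoid dendritic cells, monocytes and B cells. It had 5079, 10792 and 10263 normalized counts in WT453, WT454 and WT455 and 3657, 11007 and 7685 in KO451, KO452 and KO457. The KO libraries spanned the whole WT range, with the lowest and the highest of the 6 values both from KO spleens. Its log2 fold change was -0.29 ± 0.46 (SE), with a 95% interval from 0.39-fold to 1.74-fold (limma, adjusted p = 0.854), and it turned to 0.16 without KO451. Monocyte markers summed to between 3528 and 4153 CPM in WT and between 3962 and 6422 CPM in KO libraries, with none of the 10 at 0, and their part in the Irf8 values was not tested. Spi1, which encodes the ETS factor PU.1, with which IRF8 binds DNA, had a log2 fold change of 0.01 ± 0.35 (SE). Irf4, a relative of Irf8 used by cDC2, B cells and plasma cells, had one of -0.31 ± 0.38 (SE). Neither passed (limma, adjusted p = 0.996 and 0.790). Zeb2, a factor that acts against the cDC1 fate, had 417, 1704 and 2193 normalized counts in WT and 3106, 2165 and 2383 in KO libraries, which overlap (1.12 ± 0.59 SE, limma adjusted p = 0.524).

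Wdfy4 encodes a large BEACH-domain protein that cDC1 need for cross-presentation of cell-associated antigen. It had 6509, 12132 and 10915 normalized counts in WT453, WT454 and WT455 and 6767, 10619 and 7711 in KO451, KO452 and KO457. WT453 and KO451 were the lowest libraries in Wdfy4 and in Irf8, though in opposite order. The log2 fold change of Wdfy4 was -0.21 ± 0.30 (SE), with a 95% interval from 0.53-fold to 1.41-fold (limma, adjusted p = 0.825), and it was -0.49 without WT453 and -0.037 without WT454. B cell markers had a summed level of 1678, 5681 and 4351 CPM in WT453, WT454 and WT455 and of 1601, 3311 and 1747 CPM in KO451, KO452 and KO457. WT453 and KO451 were the lowest libraries in that sum too, with KO457 close to them. In Irf8 and in Wdfy4, KO457 was above both. Of 12 B cell markers 11 were below 0 in log2 fold change, and none was at 0 in any library. Their part in the values of Irf8 and Wdfy4 was not tested.

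**Figure D3:**
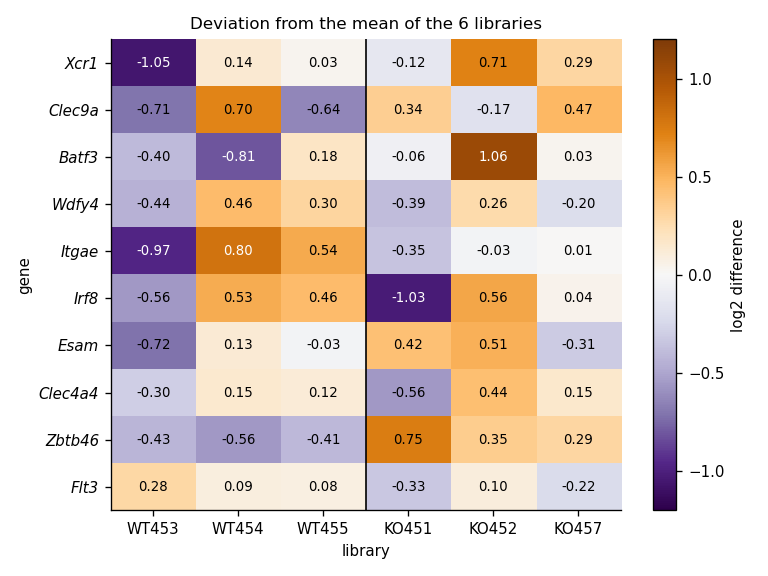
Log2 value of each member (rows) in each library (columns) less its mean over the 6 libraries, with WT to the left of the line and KO to the right. WT453 is below the mean in every member except Flt3, and Zbtb46 is the row in which all WT cells are negative and all KO cells positive.

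Of the cDC2 genes, Esam encodes an adhesion molecule that is also found on endothelium and platelets. It had 57.7, 104 and 93.5 normalized counts in WT453, WT454 and WT455 and 129, 137 and 76.9 in KO451, KO452 and KO457. KO451 and KO452 were above all WT libraries, and KO457 lay between WT453 and the other WT libraries. For Esam the log2 fold change was 0.42 ± 0.40 (SE), with a 95% interval from 0.69-fold to 2.58-fold (limma, adjusted p = 0.723). It was 0.16 without WT453, 0.26 without KO452 and 0.68 without KO457. Megakaryocyte and platelet markers summed to between 74.9 and 124 CPM in WT and between 71.9 and 142 CPM in KO libraries, and 7 of 10 were above 0, with none at 0 in any library. The part of these cells and of endothelium in the Esam values was not tested. Notch2, the receptor on which ESAM-carrying cDC2 depend, had 6235, 9345 and 8457 normalized counts in WT and 5610, 5767 and 4209 in KO libraries. Its KO libraries were all below its WT libraries (log2 fold change -0.62 ± 0.24 SE, limma adjusted p = 0.418). Dll1, a NOTCH2 ligand, was far less abundant and had 36.1, 54.7 and 60.3 in WT and 13.9, 29 and 19.7 in KO libraries, also without overlap (-1.26 ± 0.48 SE, limma adjusted p = 0.420). Notch2 was far more abundant than Esam, and the part of cells other than cDC2 in the Notch2 and Dll1 values was not tested.

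Clec4a4 encodes DCIR2, an inhibitory lectin receptor of cDC2. It had 56.7, 77.5 and 75.8 normalized counts in WT453, WT454 and WT455 and 47.2, 95 and 77.9 in KO451, KO452 and KO457. As in Irf8, KO451 was the lowest library and KO452 the highest. The log2 fold change was 0.02 ± 0.41 (SE), with a 95% interval from 0.53-fold to 1.97-fold (limma, adjusted p = 0.993). Without WT453, KO452 or KO457 it was -0.12, -0.19 or -0.05. Clec4a4 lies on chromosome 6 (122990367 to 123024105, plus strand) in a cluster of like genes, and its reads may be split among them. Clec4n, which encodes dectin-2, had 925, 2868 and 3330 normalized counts in WT and 6344, 9437 and 6773 in KO libraries (1.84 ± 0.48 SE, limma adjusted p = 0.344). Clec4b1 had 73.2, 129 and 133 in WT and 283, 255 and 209.9 in KO libraries (1.19 ± 0.34 SE, limma adjusted p = 0.350). The authors' deposited table gives an FDR of 0.00485 for Clec4n and 0.0224 for Clec4b1. For the other 6 of the 8 relatives examined the authors' deposited FDR was above 0.05. Of all genes tested here 4.29% were below it. Clec4d, an activating lectin receptor of myeloid cells, went the other way, with 484, 482 and 581 normalized counts in WT and 359, 320.0 and 422 in KO libraries, without overlap (-0.49 ± 0.23 SE, limma adjusted p = 0.496). Clec4a3 was higher without overlap, at 1105, 1957 and 1927 in WT and 2038, 2437 and 1987 in KO libraries (0.41 ± 0.27 SE, limma adjusted p = 0.593). The remaining 4 overlapped, with log2 fold changes of 0.61 in Clec4a1, 0.51 in Clec4a2, -0.40 in Clec4e and -0.12 in Clec4b2. Of the 8, 3 were higher and 1 lower without overlap, beside 19.5% of all genes tested in either direction. The median of the 8 was 0.46, or 0.23 without WT454.

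Other genes used for these cells were read from lists of the same fit, and no gene of any of them passed limma's adjusted threshold. Of 24 other cDC1 genes 12 were above 0, with a median log2 fold change of 0.16. That median was -0.015 without KO452, 0.32 without WT454 and 0.41 when genes under a mean of 1 CPM were left out, so its sign rests on KO452. At an unadjusted limma p under 0.05, 4 were higher and 0 lower, beside 5.50% and 5.46% of all genes. Those 4 were Cadm1, Snx22, Cd24a and Rab43. Cadm1, an adhesion molecule of cDC1 with wide expression elsewhere, had 538, 968 and 877 normalized counts in WT and 1134, 1641 and 1240 in KO libraries. Cd24a, which red cell precursors and B cells also carry, had 15140, 17352 and 18764 in WT and 84030, 31600 and 45446 in KO libraries, with KO451 the highest. The authors' deposited table gives an FDR of 0.000781 for Cd24a and 0.0161 for Snx22, and of more than 0.05 for the other 22 genes of the list. Of all genes tested here 4.29% were below 0.05 by that FDR. Snx22 had 418, 564 and 566 in WT and 2462, 968 and 851 in KO libraries, again with KO451 highest. KO451 was also highest in the erythroid sum given above, but KO452 had less erythroid signal than KO457 and more Snx22, and the part of red cell precursors in Cd24a and Snx22 was not tested. Cd24a, Id2, Ppt1 and Btla led the list in level. Ppt1, a lysosomal enzyme, was at 0.60 ± 0.34 (SE) in log2 fold change and Btla, an inhibitory receptor that B cells also carry, was at -0.81 ± 0.38 (SE), and both overlapped. The endosomal receptor Tlr3 (-0.63 ± 0.44 SE) and the hydrolase gene Naaa (-0.04 ± 0.27 SE), both abundant in cDC1, overlapped between the groups.

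Of 22 other cDC2 genes 6 were above 0 and 16 below, with a median of -0.13, which was -0.30 without WT453 and -0.27 without KO452. At an unadjusted p under 0.05, 1 was higher (Sirpa) and 3 were lower (Notch2, Dtx1 and Clec10a), beside 5.50% and 5.46% of all genes. Sirpa, a receptor for CD47 that red pulp macrophages also carry, had 2117, 4902 and 4633 normalized counts in WT and 8256, 6738 and 5967 in KO libraries. Red pulp macrophage markers were above 0 in 12 of 12, with a summed level of 1502 to 5499 CPM in WT and 5534 to 9848 CPM in KO libraries. WT453 was the lowest library in Sirpa and in all 12 of these markers, and without it their median fell from 1.24 to 0.60, with 11 above 0. Their part in the Sirpa difference was not tested. Dtx1, a NOTCH target that marginal zone B cells also make, had 4031, 7025 and 4470 in WT and 1814, 4358 and 2114 in KO libraries, with KO452 above WT453. Clec10a, a lectin of cDC2 and macrophages, had 402, 308 and 341 in WT and 269, 201 and 175 in KO libraries. Clec12a, Sirpa, Cd4 and Cd300a led the list in level. Clec12a, an inhibitory lectin of myeloid cells, had 17134 normalized counts in WT453 against 2700 to 9099 in the other 5 libraries (0.21 ± 0.68 SE). Cd4, which helper T cells make, and Cd300a, an inhibitory receptor, overlapped at -0.14 ± 0.38 and 0.50 ± 0.31 (SE).

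Of 18 genes used for both kinds of cell 4 were above 0 and 14 below, with a median of -0.29, which ranged from -0.72 without WT453 to -0.12 without KO451. Itgax, the CD11c integrin chain by which dendritic cells are sorted, had 2028, 3097 and 2564 normalized counts in WT and 1748, 3237 and 1975 in KO libraries, which overlap. Ptprc, the CD45 chain of all white blood cells, had a log2 fold change of -0.38 ± 0.28 (SE). Cd74 and the class II genes H2-Ab1, H2-Aa and H2-Eb1, which B cells also make, led this list in level. Their log2 fold changes were -0.59 ± 0.42, -0.31 ± 0.44, -0.24 ± 0.56 and -0.34 ± 0.47 (SE). Of 20 genes of mature dendritic cells 8 were above 0, with a median of -0.03. In this list 0 were past an unadjusted limma p of 0.05, beside 11.0% of all genes tested. Leaving out 1 library gave medians from -0.24 (without WT453) to 0.11 (without KO451). Ccl5, Marcksl1, Ccr7 and Cd83 led this list in level, and Ccl5, Marcksl1 and Cd83 overlapped at -0.46 ± 0.37, -0.020 ± 0.43 and 0.27 ± 0.56 (SE). Ccr7, the receptor that leads mature dendritic cells and naive T cells into T cell zones, also overlapped. Its log2 fold change was -0.78 ± 0.53 (SE) (limma, adjusted p = 0.608). Of 14 plasmacytoid dendritic cell markers 6 were above 0, with a median of -0.04, which ranged from -0.61 without WT453 to 0.25 without WT455. Beside 11.0% of all genes tested, 0 of these markers passed an unadjusted limma p of 0.05. Ly6d, Spib, Bst2 and Pld4, the most abundant of them, overlapped at -0.021 ± 0.71, -0.07 ± 0.62, 0.11 ± 0.24 and -0.09 ± 0.21 (SE). Of 25 partners and ligands of the members 6 were above 0, with a median of -0.28. In that list 3 were lower at an unadjusted p under 0.05 (Flt3l, Notch2 and Dll1) and 0 were higher, beside 5.46% and 5.50% of all genes. Among its most abundant genes, Ptpn6 and Jund overlapped at -0.034 ± 0.19 and -0.64 ± 0.32 (SE). Some genes stand in more than one of these lists.

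**Figure D4:**
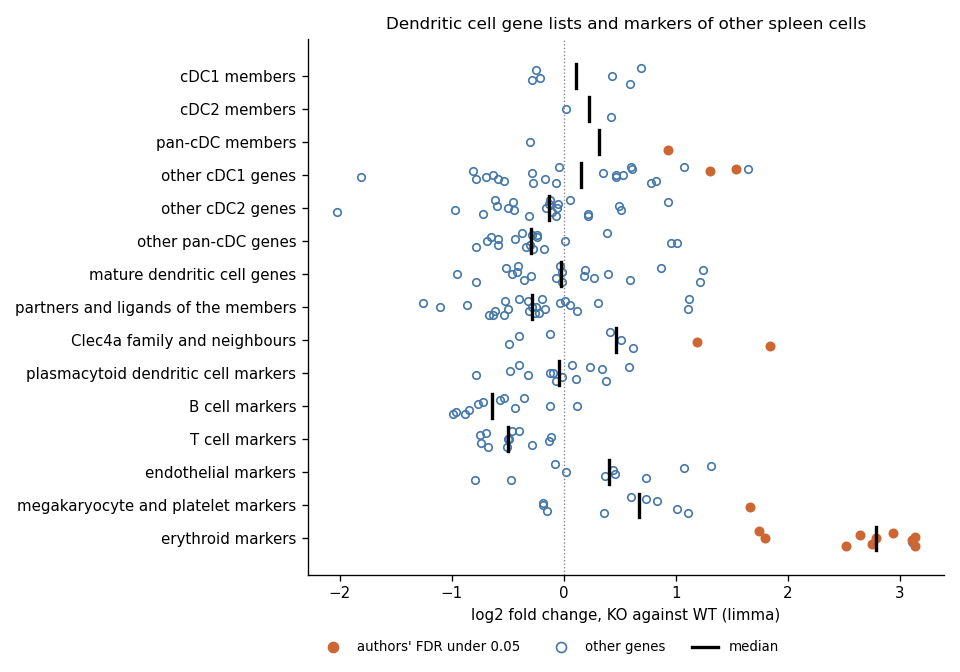
Log2 fold change, KO against WT (x axis), of every tested gene of the members and of the lists (rows). Black bars are medians and filled orange points are genes whose FDR was below 0.05 in the authors' deposited table. Zbtb46 is the 1 filled point among the members, and the erythroid markers lie highest, with a median of 2.78.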

How the data were processed

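Spleen RNA of 6 mice, 3 KO and 3 WT, was sequenced as mRNA libraries. DESeq, StringTie 1.3.1c, STAR 2.5.3a and FastQC 0.11.5 are listed in the submitters' processing notes with the build GRCm38 and with no role for each. How reads were counted, and whether by strand, is not given in the sources used here. Per the file headers, the authors deposited 1 table with a log2 value per gene and library, plus their own log2 fold change, p-value and FDR. The deposited log2 value is that of reads over a size factor per library, plus 1, since 2 to its power, less 1, gave whole reads within 0.001 for 100% of values. The authors' fold change is the difference of group means. The 2 deposited columns of group means were not used.

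Limma 3.58.1 (R 4.3.3) with an intensity trend was fitted to the deposited log2 values of all 6 libraries, with 2 groups and no covariate. Genes with a mean normalized count of at least 1 were tested (22081) and adjusted by Benjamini-Hochberg at 0.05. The pseudocount of 1 understates changes of low genes. Limma's p-values reflect how these 6 mice vary. Exon lengths and positions came from GENCODE M21, in which 26404 of 26452 identifiers were found. Alternatives were a pseudocount of 0.1 or 0.01, leaving out the filter or setting it at 1 CPM, quantile normalization, size factors without haemoglobin and immunoglobulin genes, voom with TMM scaling on the recovered reads, a threshold of 0.01 and each library left out. The members, the lists and the promoter motifs were chosen with earlier results of these data known. Named were all members, Was, ligands and regulators tied to a member, the Clec4a family, Itgax, Ptprc, Sirpa and the 4 most abundant genes (RPKM) of each list of dendritic cell genes, partners and ligands, except 1 that is not reported here. The same rule for markers of other cell types was followed only for the progenitor and endothelial lists, and the rest are given as sums and counts. Clec1b, Tlr3, Naaa, Klf1, Dll1, Cadm1, Snx22, Rab43, Dtx1, Clec10a, Ccl22, Il12b and markers at 0 were named after their values were seen.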

Additional observations from a re-analysis of the deposited data

How the results depend on the processing

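No member was called under any of the 14 alternatives. The number of genes called over all genes was 2, and 3 with size factors without haemoglobin and immunoglobulin genes. It was 0 with voom and TMM scaling (limma, 2371 genes at an unadjusted p under 0.05) and 0 at an adjusted threshold of 0.01 (limma, 2420 genes at an unadjusted p under 0.05). With 1 library left out it ranged from 0 to 2, being 0 in all but the fit without WT453, with between 1487 and 4165 genes at an unadjusted p under 0.05. Of the 130 refits of members, 125 kept the sign of the log2 fold change. The exceptions were Itgae without WT454 (0.0915), Irf8 without KO451 (0.16) and Clec4a4 without WT453 (-0.12), KO452 (-0.19) or KO457 (-0.05), and the cause was not tested. With 1 library left out the log2 fold change of Itgae ranged from -0.79 to 0.0915, that of Irf8 from -0.64 to 0.16 and that of Clec4a4 from -0.19 to 0.31. Of 286 refits of list medians, 280 moved by less than the spread between libraries, a rule that allows a change of sign. Within it, the median of the cDC1 members turned from 0.11 to -0.15 without WT453. Medians of other cDC1 genes, of mature and plasmacytoid dendritic cell genes and of neutrophil and progenitor markers also changed sign in some of these refits. The other 6 were other cDC1 genes at the 1 CPM filter (0.41), other cDC2 genes without WT453 (-0.30) or KO452 (-0.27), the Clec4a family without WT454 (0.23) and endothelial markers without WT454 (0.040) or KO452 (0.12). No paired analysis was possible because the KO and WT mice share no numbers. With 3 mice a group, the 95% intervals of 9 members included 0, and Clec4a4, with as few as 44 reads in a library, is less precisely counted than Irf8 or Wdfy4.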

Other observations

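Within the list of mature dendritic cell genes, Il12b and Ccl22 had the highest log2 fold changes, and both were picked after their values were seen. Il12b, the p40 chain of the cytokines IL-12 and IL-23, had 15.5, 52.2 and 40.5 normalized counts in WT453, WT454 and WT455 and 42.9, 114 and 94.5 in KO451, KO452 and KO457. KO452 and KO457 were above all WT libraries and KO451 was among them (limma log2 fold change 1.24 ± 0.61 SE, adjusted p = 0.503). Ccl22, a chemokine that attracts regulatory T cells, had 63.9, 227 and 206 in WT and 181, 491 and 424 in KO libraries, with the same 2 KO libraries on top (1.21 ± 0.60 SE, limma adjusted p = 0.504). WT453 was the lowest library in both genes.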
